A study of Mus musculus with 6 samples.

Results

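The cannabinoid receptor gene Cnr1 and the genes of 6 enzymes that make or break down endocannabinoids (Napepld, Dagla, Daglb, Faah, Mgll and Abhd6) were followed in cultured mouse adipocytes. The 7 genes were picked by symbol, and all 7 have a row among the 35976 rows of the deposited expression table. Cnr1 was picked because it was higher in both groups that received Rbm43 siRNA than in the group with Control siRNA. Its differences in those 2 comparisons are therefore given as a description, with no test. The 6 enzymes were added by their role in the pathway, with earlier results of these data known.

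CB1, the protein encoded by Cnr1, is a G protein-coupled receptor that signals mainly through inhibitory G proteins of the Gi/o class and lowers cyclic AMP. It is best known from neurons, and adipocytes also express it. Its lipid ligands are made on demand from membrane lipids. The diacylglycerol lipases Dagla and Daglb make 2-arachidonoylglycerol (2-AG), and the phospholipase Napepld releases N-acylethanolamines such as anandamide. Faah hydrolyses anandamide, while Mgll and Abhd6 hydrolyse 2-AG. In fat cells Mgll also carries out the last step of lipolysis, in which monoacylglycerol is split into glycerol and fatty acid.

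The cells were primary adipocytes, fully differentiated in culture, and every group carried the genotype Ppargc1a(fl/fl), in which loxP sites flank DNA of Ppargc1a. Ppargc1a encodes PGC-1alpha, a coactivator of mitochondrial and thermogenic genes, while the product of Rbm43 binds RNA. The 3 groups of 2 libraries each were Cre virus with Rbm43 siRNA, GFP virus with Rbm43 siRNA, and GFP virus with Control siRNA. The viruses were adenoviruses, Cre is the recombinase that cuts out loxP-flanked DNA, and GFP virus is its control. Cre virus combined with Control siRNA was not analysed here, so Cre virus was compared with GFP virus only under Rbm43 siRNA. The labels name no fat depot, sex or age, and although they call the libraries biological duplicates they do not say whether these came from separate animals, so p-values measure only the spread between these libraries. The design text speaks of a single siRNA against Rbm43, so an effect of its sequence on other genes cannot be told apart from loss of Rbm43.

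Libraries held 15775398 to 21961724 reads in genes. Rbm43, the siRNA target, had normalized counts of 53.8 and 32.5 with Cre virus and Rbm43 siRNA and 43.7 and 46.6 with GFP virus and Rbm43 siRNA, against 185 and 224 with GFP virus and Control siRNA. Ppargc1a had 463 and 469 with Cre virus and Rbm43 siRNA and 399 and 423 with GFP virus and Rbm43 siRNA, against 163 and 202 with GFP virus and Control siRNA. The count of Ppargc1a also takes in exons that Cre does not remove, so it does not check excision. All 7 adipocyte markers (Adipoq, Plin1, Cidec, Fabp4, Lep, Lipe and Pparg) were measured, with summed normalized counts of 175410 to 253725 per library. The neuronal markers Elavl4 and Rbfox3 were at 0 in all 6 libraries, and Snap25 and Syt1 stayed under 10 normalized counts.

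Cnr1 lies on chromosome 4, 33924593 to 33948831, plus strand, in the mm10 (GRCm38) build, where no other annotated gene overlaps it. RefSeq (GRCm38.p6) lists 3 start sites for Cnr1, and their promoter windows run from 250 bases before to 50 bases after the start. Of the 7 genes, 6 have such windows, and Dagla is named only. The windows shown belong to Cnr1, which differed most between the groups, and to Mgll, the enzyme gene whose level passed a test. Capitals mark the E-box CACGTG, which reads the same on both strands.
Cnr1, the second start, chr4:33924394-33924693, plus strand: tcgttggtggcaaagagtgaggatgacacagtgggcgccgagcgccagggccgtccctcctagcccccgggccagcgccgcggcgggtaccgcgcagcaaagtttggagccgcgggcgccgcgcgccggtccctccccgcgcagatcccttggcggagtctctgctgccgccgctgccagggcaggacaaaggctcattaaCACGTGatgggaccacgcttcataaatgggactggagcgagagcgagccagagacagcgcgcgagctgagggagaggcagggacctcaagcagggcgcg
Cnr1, the third start, chr4:33926130-33926429, plus strand: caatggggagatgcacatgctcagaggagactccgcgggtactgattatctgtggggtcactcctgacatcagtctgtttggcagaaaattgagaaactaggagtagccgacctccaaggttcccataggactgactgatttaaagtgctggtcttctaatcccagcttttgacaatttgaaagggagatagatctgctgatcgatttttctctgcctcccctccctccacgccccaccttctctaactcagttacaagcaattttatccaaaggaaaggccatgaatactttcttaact
Mgll, the first start, chr6:88724162-88724461, plus strand: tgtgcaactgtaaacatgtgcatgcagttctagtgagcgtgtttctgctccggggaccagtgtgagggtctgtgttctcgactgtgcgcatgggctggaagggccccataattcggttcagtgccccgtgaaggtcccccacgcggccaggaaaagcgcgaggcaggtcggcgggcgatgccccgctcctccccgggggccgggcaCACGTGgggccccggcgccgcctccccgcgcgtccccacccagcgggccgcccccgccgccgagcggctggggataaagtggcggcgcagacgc
The second Cnr1 start and the first Mgll start each had an E-box, beginning 49 and 44 bases before the start. E-boxes occurred in 7.15% of all 32851 windows of this length. On both strands, no window of the 6 genes held the estrogen-related receptor half-site AAGGTCA (4.72% of all windows), the cyclic AMP response element TGACGTCA (1.79%), the C/EBP site TTGCNNAA (10.8%) or the TATA box TATAAA (13.6%). The second Cnr1 window had 33 CpG and 69.0% G or C, and the third had 5 CpG and 46.3%. The first Cnr1 window, not printed since it held none of these motifs, had 40 CpG and 76.3% G or C. The first Mgll window had 32 CpG and 70.0% G or C, and the second, which had no E-box and is not printed, had 42 CpG and 72.3%. The median over all windows was 7 CpG and 52.7%. None of these matches was tested for use in these cells.

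The receptor was the member that differed most between the siRNA groups. Cnr1 had normalized counts of 195 and 251 with Cre virus and Rbm43 siRNA and 204 and 221 with GFP virus and Rbm43 siRNA, against 73.9 and 79.1 with GFP virus and Control siRNA. All 4 libraries with Rbm43 siRNA lay above both libraries with Control siRNA, and the 2 virus groups overlapped. Groups that do not overlap made up 54.6% of the 14211 tested genes with Cre virus and Rbm43 siRNA over GFP virus and Control siRNA, and 58.5% with GFP virus and Rbm43 siRNA over GFP virus and Control siRNA. The group means were 223 ± 39.9 with Cre virus and Rbm43 siRNA, 212 ± 12.1 with GFP virus and Rbm43 siRNA and 76.5 ± 3.72 with GFP virus and Control siRNA (SD, n = 2 each). The mean was 2.92 times as high with Cre virus and Rbm43 siRNA, and 2.78 times as high with GFP virus and Rbm43 siRNA, as with GFP virus and Control siRNA. On the log2(normalized count + 1) scale the differences were 1.52 ± 0.14 and 1.46 ± 0.14 (SE, limma fit of all 6 libraries), and they share the Control siRNA libraries. The SE do not allow for the choice of Cnr1 by these differences. Across 18 alternative settings they ranged from 1.34 to 1.70 with Cre virus and from 1.40 to 1.52 with GFP virus. These values rest on 65 and 71 reads with Control siRNA and on 199 to 286 reads with Cre virus and Rbm43 siRNA.

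The choice of Cnr1 used no difference between the virus groups, but it required both of them to lie above Control siRNA. The test of that difference is therefore not fully independent of the choice. Cnr1 did not pass it: the log2 fold change of Cre virus over GFP virus under Rbm43 siRNA was 0.06 ± 0.14 (SE; 95% interval −0.23 to 0.34; limma adjusted p = 0.860). The wider spread was between the Cre virus libraries, and without replicate 1 or replicate 2 of Cre virus the value was 0.24 or −0.12, which were the ends of the range over 17 alternative settings (limma adjusted p from 0.562 to 0.998). The design cannot give an exact permutation p below 0.333 for a single gene with 2 libraries against 2, so tests rest on the spread pooled across genes by limma.

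**Figure D1:**
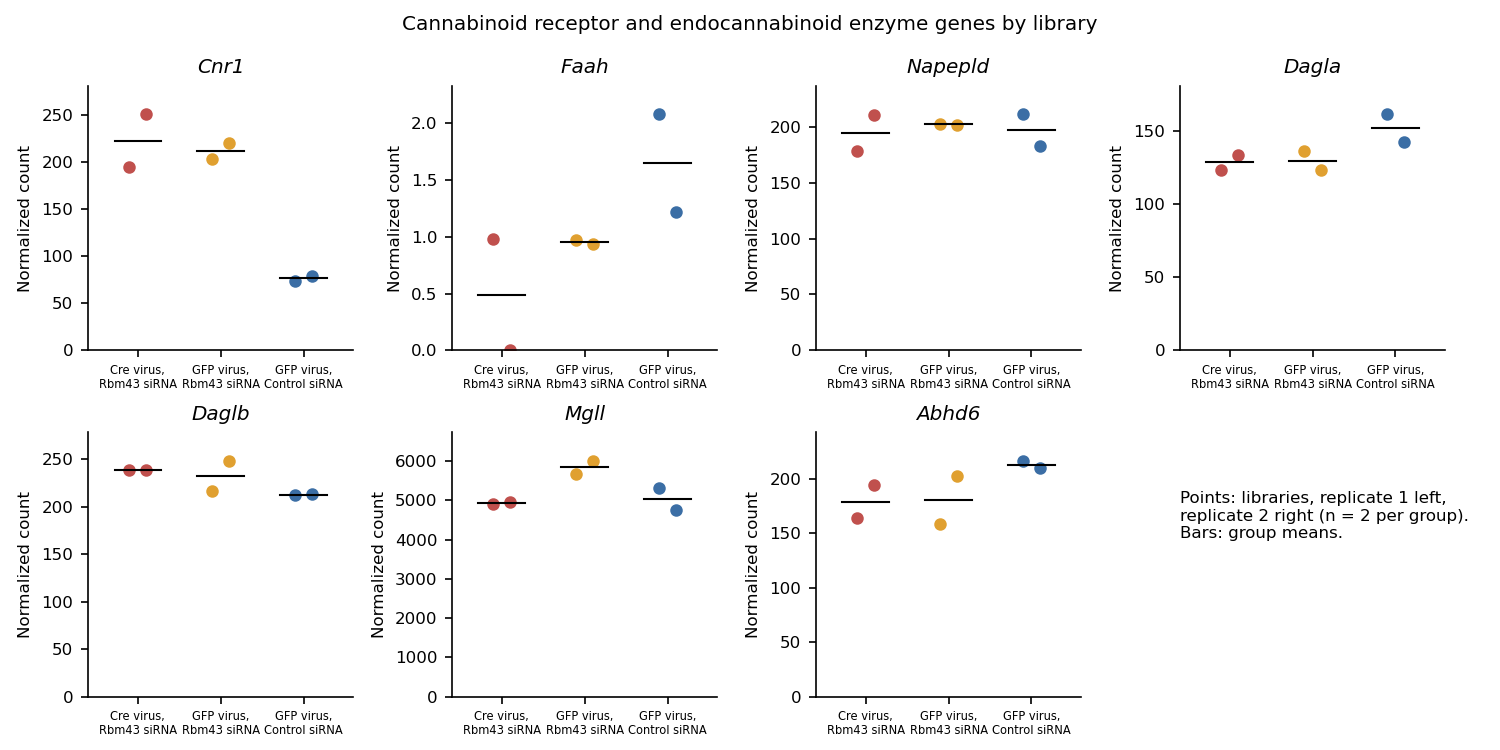
Normalized counts (y axis, from 0, own scale per gene) of the 7 genes in each library, by group from Cre virus with Rbm43 siRNA on the left to GFP virus with Control siRNA on the right, with points for replicates 1 and 2 and bars for group means. Cnr1 lies at 195 to 251 in the 4 Rbm43 siRNA libraries and at 73.9 and 79.1 with Control siRNA, Mgll is highest with GFP virus and Rbm43 siRNA, and Faah stays at 0 to 2.08.

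Markers of other cells that express Cnr1 or accompany fat cells were read beside it. The 8 neuronal and Schwann cell markers summed to 920.1 and 989 with Cre virus and Rbm43 siRNA and 946 and 899 with GFP virus and Rbm43 siRNA, against 1116 and 1011 with GFP virus and Control siRNA, so the sums were lower where Cnr1 was higher. Tubb3 led this list, and S100b in it was higher with GFP virus and Rbm43 siRNA than with Control siRNA, at 0.77 ± 0.17 on the log2 scale (SE; limma adjusted p = 0.00198). The 5 mural and smooth muscle markers, led by Acta2, went the way of Cnr1, with sums of 50471 and 52809 with Cre virus and Rbm43 siRNA and 44707 and 43347 with GFP virus and Rbm43 siRNA, against 41846 and 37816 with GFP virus and Control siRNA. Among them Pdgfrb went the other way, at 5375 and 5330 with Cre virus and Rbm43 siRNA and 5122 and 4884 with GFP virus and Rbm43 siRNA, against 6095 and 6055 with Control siRNA. The 4 endothelial markers summed to 300 and 327 with Cre virus and Rbm43 siRNA and 252 and 254 with GFP virus and Rbm43 siRNA, against 232 and 220 with Control siRNA. Among them Tek overlapped Control siRNA with Cre virus, at 47.96 and 45.67 against 46.81 and 54.77. The 7 adipocyte markers summed to 210925 and 212690 with Cre virus and Rbm43 siRNA and 252583 and 253725 with GFP virus and Rbm43 siRNA, against 190704 and 175410 with Control siRNA. Fabp4 made up most of these sums, with 159622 and 162219 with Cre virus and Rbm43 siRNA and 191083 and 190516 with GFP virus and Rbm43 siRNA, against 137846 and 125493 with Control siRNA. Plin1, Cidec and Pparg, like Fabp4, were higher in every Rbm43 siRNA library than in both Control siRNA libraries. Lipe was higher with GFP virus and Rbm43 siRNA and overlapped Control siRNA with Cre virus. Adipoq and Lep went the other way with Cre virus and Rbm43 siRNA over GFP virus and Control siRNA, at −0.25 ± 0.05 and −0.62 ± 0.15 on the log2 scale (SE; limma adjusted p = 0.000835 and 0.00811). With GFP virus and Rbm43 siRNA, Adipoq was at 0.07 ± 0.05 (limma adjusted p = 0.314) and Lep at −0.28 ± 0.15 (limma adjusted p = 0.196). Macrophage markers (593 to 713) and preadipocyte and fibroblast markers (25348 to 27519) did not separate the siRNA groups in the same way, since macrophage sums were higher with Control siRNA and preadipocyte sums overlapped. Within the macrophage list Cd68 went the way of Cnr1. It had 151 and 119 with Cre virus and Rbm43 siRNA and 132 and 130 with GFP virus and Rbm43 siRNA, against 92.6 and 106 with Control siRNA. The part of the mural, endothelial, adipocyte and macrophage markers in the result for Cnr1 was not tested. In bulk libraries fewer cells of a type and less RNA per cell cannot be told apart.

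The 3 enzymes that make endocannabinoids did not pass the test in any comparison. Napepld (chromosome 5, 21662901 to 21701396, minus strand), the anandamide-releasing phospholipase, had 178 and 211 normalized counts with Cre virus and Rbm43 siRNA and 203 and 202 with GFP virus and Rbm43 siRNA, against 211 and 183 with GFP virus and Control siRNA. Its groups overlapped throughout, and its 95% intervals on the log2 scale ran from −0.21 to 0.29 for Rbm43 siRNA over Control siRNA and from −0.31 to 0.19 for Cre virus over GFP virus.

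Dagla (chromosome 19, 10245265 to 10304877, minus strand), the diacylglycerol lipase best known from neurons, had 123 and 134 normalized counts with Cre virus and Rbm43 siRNA and 136 and 123 with GFP virus and Rbm43 siRNA, against 161 and 142 with GFP virus and Control siRNA. The 4 Rbm43 siRNA libraries all lay below the Control siRNA libraries, while the virus groups overlapped. Against Control siRNA, groups did not overlap in 58.5% of all tested genes with GFP virus and 54.6% with Cre virus. The log2 fold change of Rbm43 siRNA over Control siRNA with GFP virus was −0.23 ± 0.13 (SE; 95% interval −0.50 to 0.05; limma adjusted p = 0.244), and that of Cre virus with Rbm43 siRNA over GFP virus with Control siRNA was −0.24 ± 0.13 (limma adjusted p = 0.261).

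Daglb (chromosome 5, 143464584 to 143505942, plus strand), its paralog, had 239 and 238 normalized counts with Cre virus and Rbm43 siRNA and 216 and 248 with GFP virus and Rbm43 siRNA, against 212 and 213 with GFP virus and Control siRNA. All 4 Rbm43 siRNA libraries lay above the Control siRNA libraries, beside 58.5% (GFP virus) and 54.6% (Cre virus) of all tested genes with no overlap. The log2 fold change of Rbm43 siRNA over Control siRNA with GFP virus was 0.12 ± 0.11 (SE; 95% interval −0.10 to 0.35; limma adjusted p = 0.445). This count is uncertain: 2309 of 9567 exonic bases of Daglb lie in exons of Rac1 on the other strand, and whether reads were counted by strand is not given in the sources used here. Rac1, a small GTPase, had far more reads, with 5306 and 5318 normalized counts with Cre virus and Rbm43 siRNA and 5188 and 5045 with GFP virus and Rbm43 siRNA, against 5968 and 5958 with Control siRNA.

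Of the 3 enzymes that break endocannabinoids down, Mgll was the one that passed the test, Abhd6 did not pass it, and Faah could not be tested. Mgll (chromosome 6, 88724412 to 88828360, plus strand), the main 2-AG hydrolase and a lipolytic enzyme, had 4903 and 4961 normalized counts with Cre virus and Rbm43 siRNA and 5673 and 6005 with GFP virus and Rbm43 siRNA, against 5301 and 4765 with GFP virus and Control siRNA. The group with GFP virus and Rbm43 siRNA stood above both others, and those 2 overlapped. Mgll rose with Rbm43 siRNA under GFP virus, by 0.22 ± 0.05 on the log2 scale (SE; 95% interval 0.10 to 0.33; limma adjusted p = 0.00597). It fell with Cre virus under Rbm43 siRNA, with a log2 fold change of −0.24 ± 0.05 (SE; 95% interval −0.36 to −0.13; limma adjusted p = 0.00618). Both comparisons use the same 2 GFP virus libraries with Rbm43 siRNA. Of its 5077 exonic bases, 167 are shared with annotated non-coding genes, some of them antisense. Between the groups that differ in both treatments, Mgll differed by −0.03 ± 0.05 (95% interval −0.14 to 0.09; limma adjusted p = 0.800).

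The change of Mgll kept its direction in all 18 alternative settings of either comparison and its call in 16 of 18 for Rbm43 siRNA and 13 of 18 for Cre virus, with adjusted p from 1.98e-05 to 0.145 and from 2.87e-05 to 0.233 over the alternatives, limma among them. Without GFP virus, Rbm43 siRNA replicate 2, the log2 fold changes of Mgll were 0.17 (limma adjusted p = 0.0878) and −0.20 (limma adjusted p = 0.120), and the calls were lost. The fall with Cre virus was also lost without Cre virus, Rbm43 siRNA replicate 1 (−0.23, limma adjusted p = 0.153) and without replicate 2 (−0.25, limma adjusted p = 0.119).

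Abhd6 (chromosome 14, 8002902 to 8056763, plus strand), the other 2-AG hydrolase, had 163 and 194 normalized counts with Cre virus and Rbm43 siRNA and 158 and 202 with GFP virus and Rbm43 siRNA, against 216 and 209 with GFP virus and Control siRNA. All 4 Rbm43 siRNA libraries lay below the Control siRNA libraries, with replicates of the Rbm43 siRNA groups far apart. Of all tested genes, 58.5% with GFP virus and 54.6% with Cre virus had no overlap with Control siRNA. The log2 fold changes against Control siRNA were −0.26 ± 0.13 with Cre virus (95% interval −0.53 to 0.02; limma adjusted p = 0.214) and −0.25 ± 0.13 with GFP virus (95% interval −0.52 to 0.02; limma adjusted p = 0.188), neither past the threshold.

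Faah (chromosome 4, 115967145 to 116017926, minus strand), the anandamide hydrolase, was barely detected. It had 1 and 0 reads with Cre virus and Rbm43 siRNA and 1 and 1 with GFP virus and Rbm43 siRNA, against 2 and 1 with GFP virus and Control siRNA, 6 reads in all. Every library was under the limit of 3 reads that a count of 0 allows, which equals 2.64 to 3.65 normalized counts, so no fold was formed and Faah was not tested. Such limits cover counting error only.

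A gene was tested where at least 2 libraries had 10 or more normalized counts, which held for 6 of the 7 genes. With Rbm43 siRNA under GFP virus, 1 of the 5 tested enzymes rose (Mgll) and 0 fell, while of all 14211 tested genes 23.2% changed, 13.5% rising and 9.76% falling, so the share of the enzymes was near that of all genes. With Cre virus under Rbm43 siRNA, 0 of the 6 tested genes rose and 1 fell (Mgll), against 2.62% rising and 5.88% falling, 8.50% in all. Of the genes changed there 372 rose and 836 fell, and 565 rose and 734 fell with libraries scaled to equal totals. Without the mean-variance trend limma called 0 genes there, Mgll and the pathway genes below included, with 2355 at an unadjusted p under 0.05, while edgeR called 1336 and DESeq2 838. Between Cre virus with Rbm43 siRNA and GFP virus with Control siRNA, 0 of the 5 tested enzymes changed in the limma test, against 14.7% of all genes, 8.47% rising and 6.28% falling. There 0 of the 5 had an unadjusted p under 0.05, and edgeR and DESeq2 called 0. The median log2 fold changes of the 5 tested enzymes were 0.04, −0.01 and −0.03 in the 3 comparisons, beside −0.01, 0.00 and 0.00 over all tested genes. Between the virus groups under Rbm43 siRNA, 1 of the 6 tested genes had groups that did not overlap, beside 53.7% of all tested genes. Between the siRNA groups under GFP virus, Dagla, Daglb, Mgll and Abhd6 did not overlap and Napepld did, beside 58.5% of all tested genes without overlap.

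**Figure D2:**
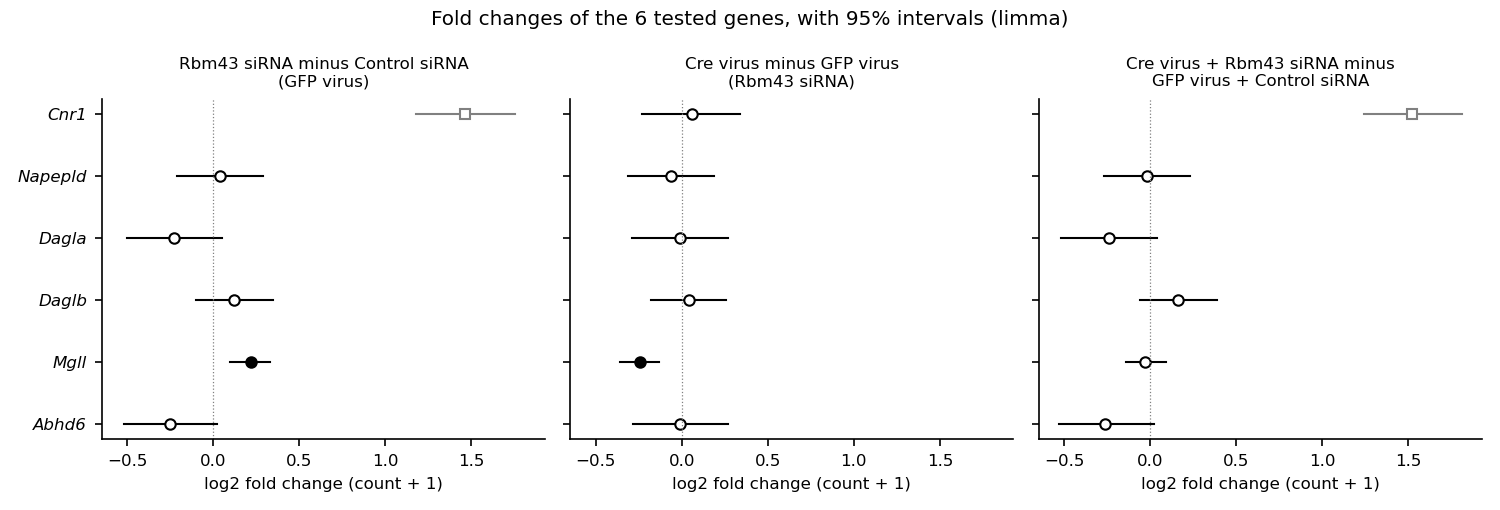
Log2 fold changes on the log2(normalized count + 1) scale (x axis) with 95% limma intervals for the 6 tested genes in the 3 comparisons, where filled circles passed the test, open circles did not, and grey squares for Cnr1 are descriptions with no test. The intervals of those squares are no test either, since Cnr1 was picked by these differences. Mgll lies at 0.22 for Rbm43 siRNA and at −0.24 for Cre virus, and Cnr1 at 1.46 and 1.52 against Control siRNA.

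Per exon length, Mgll dominated the 7 genes. It had 971 ± 8.07 normalized counts per kilobase of exon with Cre virus and Rbm43 siRNA and 1150 ± 46.3 with GFP virus and Rbm43 siRNA, against 991 ± 74.7 with GFP virus and Control siRNA (SD, n = 2 each). It made up 81.5% to 85.1% of the level summed over the 7 genes in each library. Abhd6 came next, at 75.6 ± 9.16 with Cre virus and Rbm43 siRNA and 76.3 ± 13.2 with GFP virus and Rbm43 siRNA, against 90.0 ± 2.10 with Control siRNA. Napepld followed, at 49.2 ± 5.84 and 51.1 ± 0.262 in the same Rbm43 siRNA groups, against 49.8 ± 5.11 with Control siRNA.

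Cnr1 took a different place in this order by group. It had 34.6 ± 6.19 normalized counts per kilobase with Cre virus and Rbm43 siRNA and 33.0 ± 1.88 with GFP virus and Rbm43 siRNA, against 11.9 ± 0.577 with Control siRNA. With Control siRNA it lay below Dagla (26.4 ± 2.32) and Daglb (22.2 ± 0.0584). In the Rbm43 siRNA groups it lay above both, with Dagla at 22.4 ± 1.25 and 22.5 ± 1.58 and Daglb at 24.9 ± 0.0594 and 24.3 ± 2.33 under Cre and GFP virus. On this exon length Dagla and Daglb did not differ beyond their spread with GFP virus and Rbm43 siRNA, Dagla was below Daglb with Cre virus and Rbm43 siRNA, and above it with Control siRNA. Of the level summed over the 7 genes, Cnr1 made up 2.61% and 3.25% with Cre virus and Rbm43 siRNA and 2.41% and 2.45% with GFP virus and Rbm43 siRNA, against 0.916% and 1.08% with Control siRNA.

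The place of Daglb depends on the length used, which came from GENCODE M21 and may not be the annotation the reads were counted on. Over its longest protein-coding transcript Daglb had 51.26 and 49.95 normalized counts per kilobase under Cre and GFP virus with Rbm43 siRNA, against 45.7 with Control siRNA. On that scale Cnr1 had 38.4 and 36.6, against 13.2 with Control siRNA, and so stayed below Daglb in every group. Dagla had 22.79 and 22.99, against 26.95 with Control siRNA, and also lay below Daglb in every group.

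**Figure D3:**
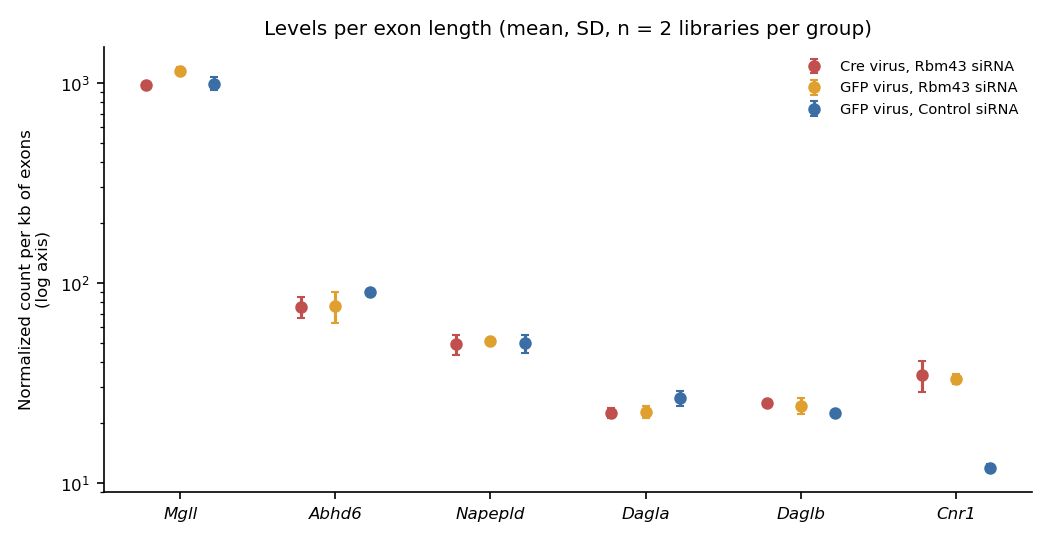
Group means of normalized counts per kilobase of exon (log y axis) with SD over 2 libraries, for 6 genes and 3 groups, Faah being left out at under 0.211. Mgll lies between 971 and 1150, while Cnr1 lies at 34.6 and 33.0 in the Rbm43 siRNA groups and at 11.9 with Control siRNA.

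The G proteins and regulators that work with CB1 changed in both directions with Rbm43 siRNA. Of 11 partner and transducer genes, 10 were tested, and with GFP virus 4 rose and 2 fell with Rbm43 siRNA, beside 13.5% and 9.76% of all tested genes (median −0.04, against −0.01). Without the mean-variance trend 3 changed, and Gnai2 did not pass (limma adjusted p = 0.116). Gnai1, an inhibitory G protein alpha subunit, had 1287 and 1343 normalized counts with Cre virus and Rbm43 siRNA and 1537 and 1512 with GFP virus and Rbm43 siRNA, against 820 and 788 with Control siRNA. Both Rbm43 siRNA groups lay above Control siRNA, and Gnai1 rose by 0.92 ± 0.06 on the log2 scale with GFP virus (SE; limma adjusted p = 2.53e-09). Adrbk2, which encodes the G protein-coupled receptor kinase GRK3, had 188 and 202 normalized counts with Cre virus and Rbm43 siRNA and 235 and 240 with GFP virus and Rbm43 siRNA, against 103 and 81.5 with Control siRNA. It rose by 1.36 ± 0.13 with GFP virus (limma adjusted p = 2.77e-07). Gnao1, the Go alpha subunit, rose by 0.69 ± 0.09 (limma adjusted p = 6.33e-06), while Gnai2, an abundant inhibitory alpha subunit, fell, with a log2 fold change of −0.27 ± 0.06 (limma adjusted p = 0.00167). The others that changed, named after their values were seen, were the beta-arrestin Arrb1 (0.25, limma adjusted p = 0.00372) and the alpha subunit Gnai3 (−0.22, limma adjusted p = 0.00454).

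With Cre virus under Rbm43 siRNA, 0 of these 10 genes rose and 2 fell, beside 2.62% and 5.88% of all tested genes (median 0.00, against 0.00). Gnao1 fell to 505 and 618 normalized counts with Cre virus, against 772 and 773 with GFP virus, a log2 fold change of −0.47 ± 0.09 (SE; limma adjusted p = 0.00145). Gnai1 changed by −0.21 ± 0.06 (limma adjusted p = 0.0278). The call of Gnao1 was lost without Cre virus, Rbm43 siRNA replicate 1 (−0.32, limma adjusted p = 0.103). That of Gnai1 was lost without replicate 1 or 2 of GFP virus with Rbm43 siRNA (−0.20 and −0.23) and without replicate 1 or 2 of Cre virus with Rbm43 siRNA (−0.18 and −0.24). It was also lost with no filter, quantile scaling and no trend (limma adjusted p = 0.0724, 0.0511 and 0.195) and with DESeq2 (DESeq2 adjusted p = 0.0678). Over 18 alternatives the adjusted p ranged from 1.32e-05 to 0.163 for Gnao1 and from 0.00221 to 0.328 for Gnai1. Adrbk2 and Gnai3 did not pass, at −0.28 ± 0.13 (limma adjusted p = 0.216) and 0.09 ± 0.05 (limma adjusted p = 0.327). Over both treatments together, 2 of the 10 rose (Gnai1 by 0.71 and Adrbk2 by 1.08; limma adjusted p = 1.13e-07 and 1.04e-05) and 1 fell (Gnai2, −0.20; limma adjusted p = 0.0192; median 0.05, against 0.00), beside 8.47% and 6.28% of all tested genes. The fall of Gnai2 was lost without Control siRNA replicate 1 (−0.11) and without Cre virus, Rbm43 siRNA replicate 1 or 2 (−0.20 in each). It was also lost with no filter (limma adjusted p = 0.105) and with no trend, with adjusted p from 4.00e-05 to 0.238 over 18 alternatives. Without Control siRNA replicate 1, 5 of these genes changed there. Arrb1 was at 0.17 ± 0.06 there (limma adjusted p = 0.0660), and at 0.19 (limma adjusted p = 0.0354) without Control siRNA replicate 1, within 0.0354 to 0.327 over 18 alternatives.

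Other receptors that bind endocannabinoids at the cell surface were near absent. Cnr2, the second cannabinoid receptor, stayed at 1.04 to 8.52 normalized counts, the ion channel Trpv1 at 1.76 to 9.71, and Gpr55 and Gpr18 each had reads in a single library. Gpr119 had 0 reads in all 6 libraries. None of these 5 genes was tested. The nuclear receptors Ppara and Pparg, which also bind N-acylethanolamines or related lipids, were the 2 of the 7 listed receptors that could be tested. Ppara had 997 and 942 normalized counts with Cre virus and Rbm43 siRNA and 1818 and 1918 with GFP virus and Rbm43 siRNA, against 848 and 646 with Control siRNA. It stood apart with GFP virus and Rbm43 siRNA, and rose by 1.33 ± 0.09 with Rbm43 siRNA under GFP virus (SE; limma adjusted p = 3.92e-09). With Cre virus its log2 fold change was −0.95 ± 0.09 (limma adjusted p = 2.31e-06). Pparg moved the same ways, by 0.64 ± 0.05 and −0.37 ± 0.05 (limma adjusted p = 2.22e-08 and 9.48e-05). Between the groups that differ in both treatments they rose by 0.39 ± 0.09 and 0.27 ± 0.05 (limma adjusted p = 0.00509 and 0.000846). These last calls were lost with no trend and without Cre virus, Rbm43 siRNA replicate 1 (0.35 for Ppara and 0.25 for Pparg). That of Ppara was also lost without replicate 2 (0.43), with no filter (limma adjusted p = 0.07245) and with DESeq2 (DESeq2 adjusted p = 0.154). Over 18 alternatives the adjusted p ranged from 3.38e-08 to 0.197 for Ppara and from 0.000167 to 0.0735 for Pparg. The medians of the 2 were 0.99, −0.66 and 0.33 in the 3 comparisons, against −0.01, 0.00 and 0.00 over all tested genes. Of all tested genes 13.5% rose with Rbm43 siRNA under GFP virus, 5.88% fell with Cre virus and 8.47% rose over both treatments.

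**Figure D4:**
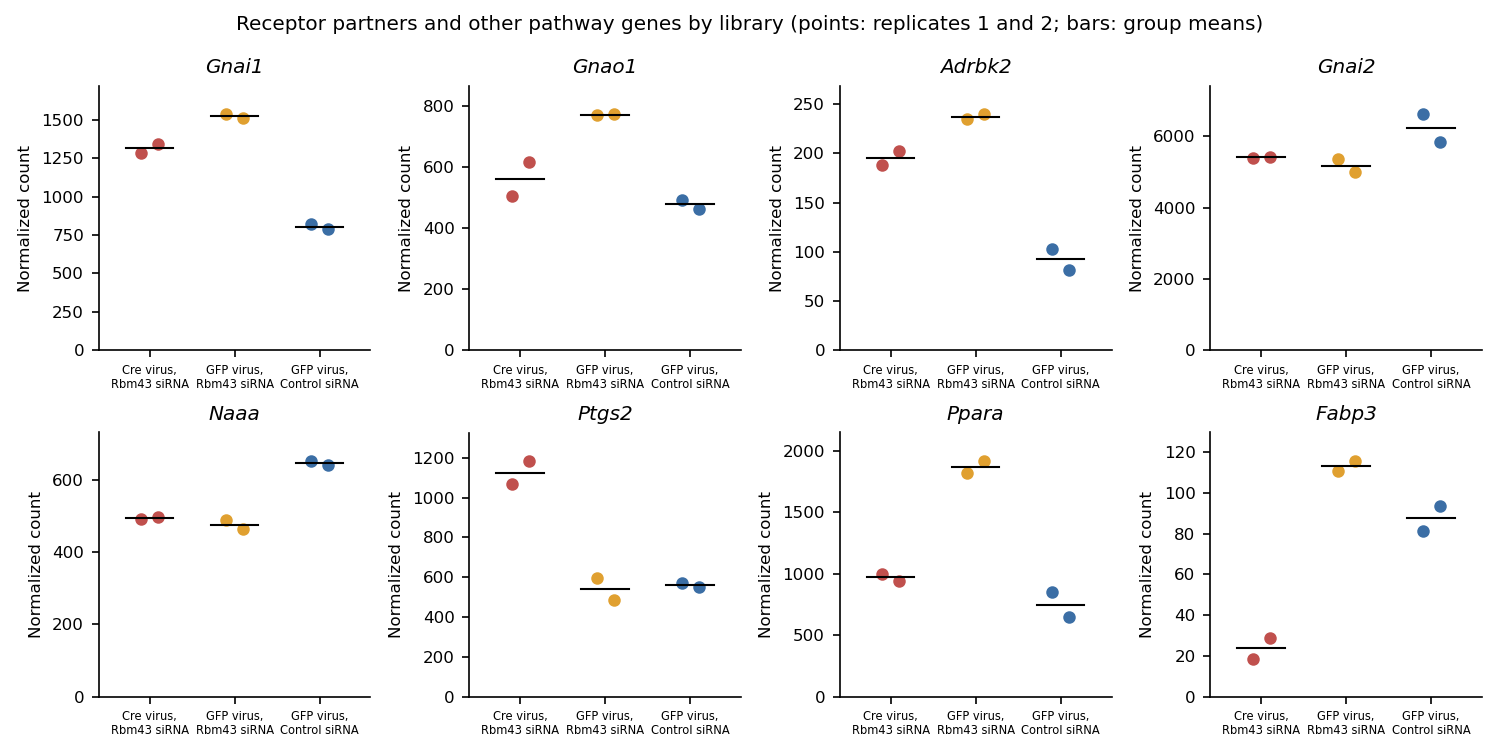
Normalized counts (y axis, from 0, own scale per gene) of 8 pathway genes in each library, by group from Cre virus with Rbm43 siRNA on the left to GFP virus with Control siRNA on the right, with points for replicates 1 and 2 and bars for group means. Gnai1 and Adrbk2 are higher in all 4 Rbm43 siRNA libraries than with Control siRNA, Ptgs2 is highest and Fabp3 lowest in the 2 Cre virus libraries.

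Other enzymes of endocannabinoid supply and removal numbered 17, of which 14 were tested. With Rbm43 siRNA under GFP virus 2 rose and 1 fell, a share near the 23.2% of all tested genes that changed (median 0.04, against −0.01). The 2 that rose were Lipe, the hormone-sensitive lipase that hydrolyses diacylglycerol, by 0.34 ± 0.05 (SE; limma adjusted p = 2.72e-05), and the phospholipase C Plcb4 by 0.27 ± 0.08 (limma adjusted p = 0.0151). Naaa, a lysosomal hydrolase of N-acylethanolamines, had 492 and 498 normalized counts with Cre virus and Rbm43 siRNA and 488 and 463 with GFP virus and Rbm43 siRNA, against 652 and 640 with Control siRNA. It fell in both comparisons with Control siRNA, at −0.44 ± 0.07 with GFP virus (limma adjusted p = 0.000165) and −0.38 ± 0.07 with Cre virus (limma adjusted p = 0.00115). Plcb1 was at 0.15 ± 0.06 (limma adjusted p = 0.103) and passed without Control siRNA replicate 2 (0.19, limma adjusted p = 0.0450). The rise of Plcb4 was lost without Control siRNA replicate 1 (0.20, limma adjusted p = 0.0620) and without GFP virus, Rbm43 siRNA replicate 2 (0.18, limma adjusted p = 0.215). Over 18 alternatives the adjusted p ranged from 0.00191 to 0.215 for Plcb4 and from 0.0450 to 0.407 for Plcb1.

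With Cre virus under Rbm43 siRNA 1 of the 14 rose and 2 fell, beside 2.62% and 5.88% of all tested genes (median −0.02, against 0.00), and 5 changed without Control siRNA replicate 1 or without replicate 2. Ptgs2, the cyclooxygenase that also oxygenates endocannabinoids, had 1067 and 1185 normalized counts with Cre virus, against 597 and 484 with GFP virus, and rose by 1.06 ± 0.09 (SE; limma adjusted p = 7.24e-07). Lipe was at −0.30 ± 0.05 (limma adjusted p = 0.000418) and Pla2g16, a phospholipase A of fat cells, at −0.28 ± 0.05 (limma adjusted p = 0.00176). Abhd4 was at −0.16 ± 0.06 (limma adjusted p = 0.105) and passed without Control siRNA replicate 1 (limma adjusted p = 0.0214) or 2 (limma adjusted p = 0.0206). The fall of Pla2g16 was lost without Cre virus, Rbm43 siRNA replicate 1 (limma adjusted p = 0.0779) or 2 (limma adjusted p = 0.0705). Over 18 alternatives the adjusted p ranged from 2.68e-06 to 0.187 for Pla2g16 and from 0.0206 to 0.613 for Abhd4. Over both treatments together 2 rose, Ptgs2 by 1.00 and Plcb4 by 0.32, and 2 fell, Naaa and Pla2g16 (−0.31; median 0.01, against 0.00; limma adjusted p = 1.93e-07, 0.00772 and 0.000391 for Ptgs2, Plcb4 and Pla2g16), beside 8.47% and 6.28% of all tested genes. The call of Plcb4 there was lost without Cre virus, Rbm43 siRNA replicate 1 (limma adjusted p = 0.0830) or 2 (limma adjusted p = 0.123), within 0.000659 to 0.128 over 18 alternatives.

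The fatty acid-binding proteins, which can carry anandamide inside cells, were measured in 4 genes. With Rbm43 siRNA under GFP virus Fabp4 rose by 0.54 ± 0.06 (SE; limma adjusted p = 1.45e-06) and Fabp5 by 0.13 ± 0.05 (limma adjusted p = 0.0469), and 0 of the 4 fell (median 0.45, against −0.01). Of all tested genes 13.5% rose and 9.76% fell there. With Cre virus under Rbm43 siRNA 3 fell and 0 rose, beside 5.88% and 2.62% of all tested genes (median −0.26, against 0.00). Fabp3, the heart-type form, had 18.6 and 29.0 normalized counts with Cre virus, against 111 and 116 with GFP virus, a log2 fold change of −2.24 ± 0.21 (limma adjusted p = 2.31e-06). Fabp5 and Fabp4 were at −0.28 ± 0.05 and −0.25 ± 0.06 (limma adjusted p = 0.000810 and 0.0106). Over both treatments together Fabp4 rose by 0.29 (limma adjusted p = 0.00177), Fabp3 fell by 1.86 and Fabp5 by 0.14 on the log2 scale (limma adjusted p = 4.90e-06 and 0.0487), and the median was 0.07, against 0.00. Of all tested genes 8.47% rose and 6.28% fell in that comparison. Fabp7, at 4.87 to 19.6 normalized counts, did not pass in any comparison, and passed in the last without Control siRNA replicate 1 (1.77, against 1.23; limma adjusted p = 0.0142, within 0.0142 to 0.392 over 16 alternatives).

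Several of these calls depend on the setting or on a single library. The rise of Fabp5 with Rbm43 siRNA passed in 5 of 18 alternatives: it was lost with no filter, with each other scaling, with the replicate block (limma adjusted p = 0.0690), in the fit without the other group, with no trend, with DESeq2, and without any of 5 libraries (limma adjusted p = 0.129 without Control siRNA replicate 2, 0.0665 and 0.238 without GFP virus, Rbm43 siRNA replicates 1 and 2, and 0.114 without either replicate of Cre virus with Rbm43 siRNA), which left 1 gene rising. The fall of Fabp4 with Cre virus was lost without GFP virus, Rbm43 siRNA replicate 2 (limma adjusted p = 0.0508) and without replicate 1 or 2 of Cre virus (limma adjusted p = 0.227 and 0.169), and that of Fabp5 without Cre virus replicate 1 (limma adjusted p = 0.0784). Over both treatments the calls of Fabp4 and Fabp5 were lost without Cre virus replicate 1 (limma adjusted p = 0.0623 and 0.401) or 2 (limma adjusted p = 0.0806 and 0.180), and that of Fabp5 without Control siRNA replicate 1 (limma adjusted p = 0.108). Fabp5 passed there in 10 of 18 alternatives. The ranges over 18 alternatives in the order of the 3 comparisons were 0.00839 to 0.238, 2.23e-06 to 0.151 and 0.00882 to 0.401 for Fabp5, and for Fabp4 0.000125 to 0.227 with Cre virus and 2.17e-06 to 0.0964 over both treatments.

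The 5 genes whose pattern was most like that of Cnr1 were found among 11631 genes with a mean of at least 50 normalized counts, by Pearson correlation over the 6 libraries on the log2(normalized count + 1) scale. They were Pi4k2b, a phosphatidylinositol 4-kinase (r = 0.9992), Gramd1a, a sterol transfer protein (r = 0.9982), Bdp1, a subunit of an RNA polymerase III factor (r = 0.9966), Prickle1 of the planar cell polarity pathway (r = 0.9962) and Pde7a, a cyclic AMP phosphodiesterase (r = 0.9958). The r values rest on only 6 points from 3 groups, and 204 of the 11631 genes had r above 0.95. The log2 differences of the 5 genes between Rbm43 siRNA and Control siRNA with GFP virus were 0.19 to 0.46, beside 1.46 for Cnr1. Pi4k2b had 854 and 910 normalized counts with Cre virus and Rbm43 siRNA and 859 and 883 with GFP virus and Rbm43 siRNA, against 621 and 643 with Control siRNA. Pde7a had 1007 and 1055 with Cre virus and Rbm43 siRNA and 992 and 1047 with GFP virus and Rbm43 siRNA, against 796 and 812 with Control siRNA. In each of the 5, as in Cnr1, the 4 Rbm43 siRNA libraries lay above both Control siRNA libraries, which follows from how they were found.

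**Figure D5:**
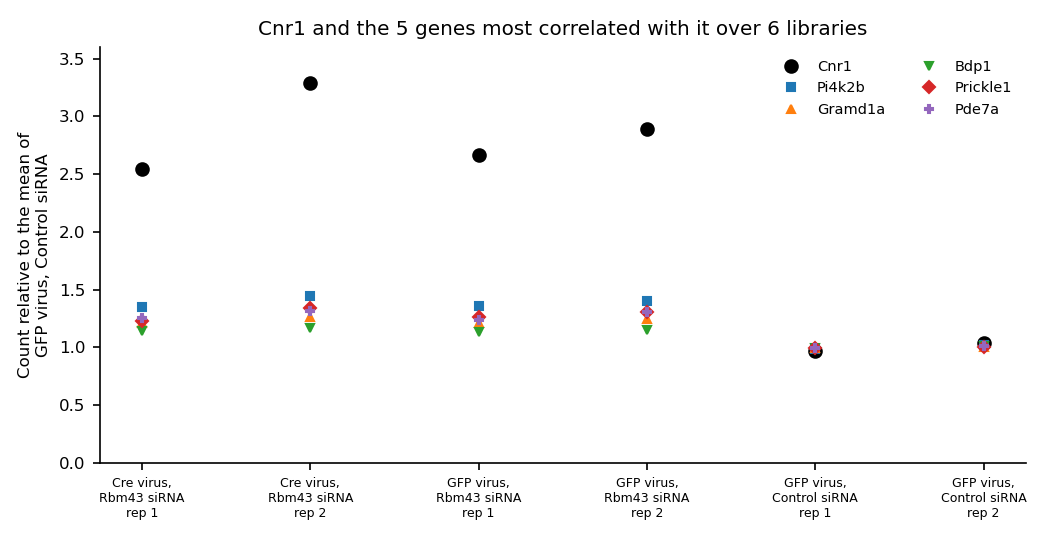
Counts of Cnr1 and of the 5 genes most correlated with it, each relative to its mean with GFP virus and Control siRNA (y axis, from 0), in the 6 libraries (x axis, by group from Cre virus with Rbm43 siRNA to GFP virus with Control siRNA). In all 6 genes the 4 Rbm43 siRNA libraries lie above both Control siRNA libraries. The means of Cnr1 are 2.92 and 2.78 times its Control siRNA mean, further from it than those of the other genes.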

How the data were processed

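RNA of 6 libraries was sequenced, per the labels' protocols, with a stranded mRNA kit and paired-end reads on a NovaSeq. The authors deposited a normalized signal for each gene, its read count over the library's size factor. Named in the submitters' processing notes are mm10, DESeq2 2.11.40.7, STAR 2.7.8 and fastp 0.23.2, with no roles. How reads were assigned to genes (counter, annotation, strand) was not given in the sources used here. In every library 100% of deposited values were whole multiples of 1 read within 0.01 read, so reads could be recovered. On them edgeR 4.0.16 called 3263, 1336 and 2111 genes in the 3 comparisons.

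Groups and replicate numbers came from sample titles. Genes with at least 10 normalized counts in at least 2 libraries were tested with limma 3.58.1 (R 4.3.3): a single fit of all 6 libraries on log2(normalized count + 1), with a mean for each group, a mean-variance trend, 3 residual degrees of freedom, Benjamini-Hochberg adjustment over all tested genes at 0.05. The comparisons were Rbm43 siRNA over Control siRNA under GFP virus, Cre virus over GFP virus under Rbm43 siRNA, and both treatments over neither. Fold changes on this scale understate changes of low genes. The procedure was tested on simulated data. Counting precision depends on depth, from 15775398 to 21961724 reads per library.

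The members, the 4 pathway lists and the marker lists were chosen with earlier results of these data known. Text names the members, up to 4 tested genes per list with the smallest p in each comparison, and the 5 genes most correlated with Cnr1. Fabp4, Lipe and Pparg are also adipocyte markers. A marker of the neuronal and Schwann cell list is not reported here and was left out of its sums. Alternatives were pseudocounts 0.5 and 5, no filter, a minimum of 50, upper-quartile, total and quantile scaling, a replicate block, a fit without the other group, a fit with no trend, edgeR, DESeq2 1.42.0 and each library left out, 18 in all. A group left with 1 library is taken to vary like the others. Exon lengths and positions came from GENCODE M21, on the same build, and the length of the longest coding transcript was an alternative chosen after seeing the data. Promoter windows came from RefSeq, GRCm38.p6.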

Additional observations from a re-analysis of the deposited data

How the results depend on the processing

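Leaving aside Cnr1 against Control siRNA, which has no test, the log2 fold changes of the members stayed on the same side of the threshold in 277 cases over the alternatives, mostly as values that did not pass, and lost a call in 7, all for Mgll. Without the mean-variance trend limma called 1304 genes for Rbm43 siRNA over Control siRNA, 0 for Cre virus over GFP virus (2355 at an unadjusted p under 0.05, while edgeR called 1336 and DESeq2 838) and 433 over both treatments, and 0 of the tested members in any of them. With DESeq2 the first and the last count were 2035 and 1220. With no filter on low values, which tests 22944 genes, the counts for Cre virus and for both treatments were 609 and 1251, and 0 members changed with Cre virus. With only the 2 groups compared, 2070 genes changed with Cre virus. Leaving out each library in turn gave 2101 to 3634 genes for Rbm43 siRNA, 310 to 2067 for Cre virus and 765 to 2647 for both treatments, and 0 to 1 members in each of the first 2. Low counts limit Cnr1 with Control siRNA (65 and 71 reads) and leave Faah untested.

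Replicate numbers did not pair the libraries: deviations from the group means of libraries with the same number correlated at 0.02, −0.04 and −0.04. With replicate number as a block, 3412, 1304 and 2214 genes changed in the 3 comparisons, and 1, 1 and 0 members.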
